A study of Mus musculus with 25 samples.

Results

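Of the 25 RNA-seq libraries of this study, the 10 that were made 1 day after weaning divided into 5 with abundant transcripts of Trac, the constant region of the T cell receptor alpha chain, and 5 with almost none. The classes were set by the Trac value itself, at 10 TPM (transcripts per 1000000) or more against less, without regard to treatment. The classes were chosen by measured Trac values and are not groups of the study, so no test was made between them. In the Trac-low class, Trac (chromosome 14, 54220521 to 54224206, GRCm38) was listed at 0.348, 0.116 and 0.187 TPM in untreated replicates 1, 4 and 5 and at 0.518 and 3.03 TPM in cabergoline replicates 1 and 3. In the Trac-high class it was 141 and 230 TPM in untreated replicates 2 and 3 and 69.2, 87.0 and 155 TPM in cabergoline replicates 2, 4 and 5. The values nearest to the threshold were 3.03 TPM below it and 69.2 TPM above it. Values by library follow the same order of replicates below, Trac-low before Trac-high.

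The libraries came from organoids, epithelium-enriched fragments that remain after enzymatic digestion of the gland. The mice carried floxed Brca1 and P53 with Cre recombinase under the K14 promoter, so that only a part of the gland carries the deletions, and both treatment groups share them. All 10 libraries were from multiparous mice in the first day of postlactational involution. Of these, 5 were untreated and 5 were treated with cabergoline, a dopamine receptor agonist that suppresses prolactin release, at 0.2 mg/kg by the labels, while the methods state a slightly higher dose. The other 15 libraries were 5 each from nulliparous mice, age-matched by the labels, and from untreated and cabergoline-treated multiparous mice at 60 days. The labels call these mice Brca1/P53-deficient too. Their libraries were used only to test what varied with Trac where the classes had not been drawn. RNA was depleted of ribosomal RNA, so that unspliced transcripts could also be read. In bulk libraries such as these, fewer cells of a type and less RNA per cell cannot be told apart.

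T cells recognise antigen through a receptor of paired chains, most often alpha and beta, held at the surface by the CD3 proteins. Each alpha chain gene is assembled by joining one of many V segments to one of many J segments, and transcription from the joined V segment runs through the remaining J segments to the constant region. The mammary fat pad holds a lymph node, in which T cells gather around stromal cells that secrete CCL19 and CCL21, and B cells form follicles around cells that secrete CXCL13. Scattered lymphocytes also lie within the ducts and stroma of the gland. The methods describe dissection away from the lymph nodes for flow cytometry, and give no such step for the organoids.

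The 5 J segments with the widest gap between the classes are shown because they separated the libraries more widely than Trac did. The gap is the log2 difference between the lowest Trac-high and the highest Trac-low library, on log2(scaled TPM + 1), and scaled TPM are TPM after median-of-ratios scaling between libraries. Sequences are from GENCODE transcripts on GRCm38, 5′ to 3′ on the plus strand of chromosome 14, and capitals mark TTTGGNNNNGGN or TTCGGNNNNGGN, which encode the Phe-Gly-X-Gly motif of J segments.
Traj39 (54179962 to 54180024): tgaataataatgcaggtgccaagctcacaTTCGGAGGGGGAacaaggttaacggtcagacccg
Traj19 (54200386 to 54200446): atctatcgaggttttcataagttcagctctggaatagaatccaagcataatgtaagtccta
Traj40 (54177921 to 54177981): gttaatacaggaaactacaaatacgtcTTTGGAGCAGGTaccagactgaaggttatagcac
Traj42 (54175773 to 54175836): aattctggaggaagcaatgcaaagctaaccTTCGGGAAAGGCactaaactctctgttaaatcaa
Traj16 (54203134 to 54203194): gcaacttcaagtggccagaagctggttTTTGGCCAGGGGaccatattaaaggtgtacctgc
On either strand, 43 of the 60 Traj segments in the table hold one of these motifs, against 7 of 794 other transcripts of the same lengths, 29 to 72 bases. Traj19 holds neither.

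Segments of the T cell receptor loci were the widest separators of the classes. Traj39 was listed at 0 in the Trac-low libraries other than cabergoline replicate 3, where it was 0.726 TPM, and at 141, 225, 72.0, 86.6 and 169 TPM in the Trac-high libraries, with a gap of 4.94. Between 55 and 56 of the 60 Traj segments reached 1 TPM in each Trac-high library, and between 2 and 34 in each Trac-low library. The 34 came from cabergoline replicate 3, the Trac-low library with the most Trac. The most abundant Traj segment held 3.62% to 4.43% of all Traj TPM in Trac-high libraries, against 9.92% to 23.3% in the sparse Trac-low libraries. Of 111 Trav segments, 26 to 63 reached 1 TPM in Trac-high and 0 to 2 in Trac-low libraries, and of 35 Trbv segments 13 to 15 against none. Together, T cell receptor genes held 0.401% to 1.41% of TPM in the Trac-high class and 0.00174% to 0.0190% in the Trac-low class.

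The rest of the receptor complex went with Trac. After scaling, 3101 of the 14733 genes tested for overlap (21.0%) were higher in every Trac-high than in every Trac-low library, and 1909 (13.0%) were lower. Without a filter on low values the shares were 14.6% and 7.98% of 26026 genes. The list counts below take all list members above 0 TPM in any of the 10 libraries. Where nearly all members of a list passed the filter, 21.0% and 13.0% are the closer background. For the other lists it is the unfiltered shares. The filter was at least 1 TPM in at least 5 libraries, which a gene could pass through the Trac-high class alone. Leaving out Trac, which drew the classes, the list of the T cell receptor complex and co-receptors held 15 genes, of which 14 passed the filter and 15 were higher in every Trac-high library. Their median difference between class medians was 4.15 on the log2 scale, against 0.07 over all tested genes. Cd3e, a CD3 subunit (chromosome 9, 44998740 to 45009627), was 0.675, 0.479, 0.695, 1.31 and 3.24 TPM in the Trac-low and 136, 207, 71.0, 78.2 and 140 TPM in the Trac-high libraries. The classes did not overlap, and cabergoline replicate 3 was again the highest Trac-low library. Cd4, the helper T cell co-receptor, was 0.746 to 1.63 TPM against 33.3 to 101 TPM, and Cd8a, the cytotoxic co-receptor, 0.275 to 1.08 TPM against 12.3 to 46.2 TPM. The ratio of Cd4 to Cd8a lay between 2.17 and 2.71 in the 5 Trac-high libraries.

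**Figure D1:**
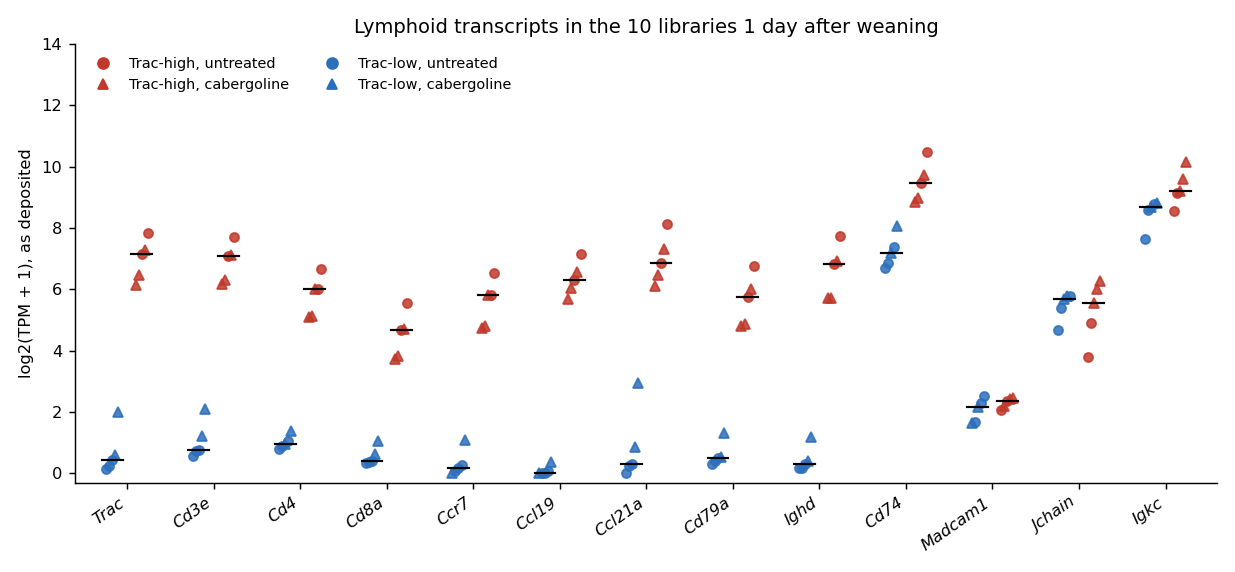
TPM of 13 lymphoid and antigen-presenting transcripts as log2(TPM + 1) on the vertical axis, as deposited, in the 5 Trac-low (blue) and 5 Trac-high (red) libraries 1 day after weaning, with circles for untreated and triangles for cabergoline-treated mice and bars for class medians. From Trac to Cd74 the classes do not overlap, while Madcam1, Jchain and Igkc overlap.

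Genes of T cell signalling followed the same division. Of 24 genes for T cell signalling and transcription factors, 23 were higher in every Trac-high library, with a median difference of 3.52. Lck, the kinase that starts signalling from the receptor, was 0.979 to 3.67 TPM in the Trac-low and 52.5 to 195 TPM in the Trac-high class. Tcf7, a transcription factor of naive and memory T cells, was 0.393 to 2.62 TPM against 48.0 to 143 TPM, and Il7r, the receptor for a survival cytokine, 0.261 to 1.71 TPM against 28.6 to 68.1 TPM. Foxp3, the transcription factor of regulatory T cells, was 0.142 to 0.447 TPM against 3.13 to 10.2 TPM. The exception was Gata3, which luminal epithelium also expresses. It was lower in every Trac-high library after scaling and overlapped as deposited, at 40.0 to 125 TPM in the Trac-low and 51.0 to 78.9 TPM in the Trac-high class.

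Chemokines that gather lymphocytes in lymph nodes, and receptors for them, were mostly higher in the Trac-high class. Of 18 genes for lymphocyte homing and lymph node chemokines, 15 were higher in every Trac-high library and 1, Tnfrsf11a, was lower after scaling and overlapped as deposited. Ccl19 (chromosome 4, 42754525 to 42756577), which attracts cells that carry CCR7, was listed at 0 in 3 Trac-low libraries, at 0.0511 TPM in untreated replicate 4 and at 0.292 TPM in cabergoline replicate 3. In the Trac-high libraries it was 78.7, 140, 50.0, 65.5 and 93.1 TPM, a gap of 4.85, second to Traj39. Ccl21a, the other CCR7 ligand, was 0, 0.248, 0.172, 6.77 and 0.814 TPM against 116, 280, 87.3, 68.6 and 158 TPM, a narrower gap of 2.32. Here cabergoline replicate 1 and not replicate 3 was the highest Trac-low library. Ccl21a has near-identical gene copies that can share its reads, so its value is uncertain. Ccr7, their receptor on naive lymphocytes, was 0.0115 to 1.12 TPM against 25.5 to 92.5 TPM. Cxcl13, the attractant of the B cell follicle, was 0.0438 to 0.331 TPM against 18.3 to 73.4 TPM.

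Genes of the vessels and stroma of lymph nodes were divided. Of 14 such genes, 6 were higher and 1, Mfge8, was lower in every Trac-high library. Chst4, a sulfotransferase of high endothelial venules, was 0 to 0.0472 TPM in the Trac-low and 2.95 to 11.4 TPM in the Trac-high class. Cr2, the complement receptor of B cells and follicular dendritic cells, was 2.52 to 9.75 TPM against 40.7 to 190 TPM. Madcam1, an addressin for lymphocytes, overlapped at 2.13 to 4.75 TPM against 3.14 to 4.51 TPM. Glycam1, a mucin of high endothelial venules that is also secreted into milk, overlapped at 2647 to 11757 TPM against 2046 to 6764 TPM.

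B cell transcripts divided the libraries as T cell transcripts did, although no B cell gene was used to draw the classes. All 23 genes of the B cell list were higher in every Trac-high library under each of the 4 scalings, with a median difference of 3.76 after median-of-ratios scaling. Cd79a, a subunit of the B cell receptor complex (chromosome 7, 24897381 to 24902197), was 0.313, 0.406, 0.242, 0.464 and 1.48 TPM in the Trac-low and 53.2, 106, 26.9, 28.1 and 63.3 TPM in the Trac-high libraries. Untreated replicate 3 was highest and cabergoline replicates 2 and 4 lowest of the Trac-high class, as for Trac, Cd3e and Cd4. The ratio of Cd79a to Cd3e lay between 0.359 and 0.515 in the 5 Trac-high libraries. In the Trac-low libraries, where both genes were low, it ran from 0.348 to 0.847 and so spanned the Trac-high range. Cxcr5, the receptor for CXCL13, was 0.0337 to 0.126 TPM against 6.39 to 22.4 TPM.

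Genes of immunoglobulins and of secreting cells were divided. Together, immunoglobulin genes held 0.277% to 0.525% of TPM in Trac-high and 0.0773% to 0.159% in Trac-low libraries, without overlap as deposited. As deposited, however, 60.9% of all tested genes were higher in every Trac-high library, and this share was not compared after scaling. Gene by gene after scaling, 3 of 99 immunoglobulin V segments, 9 of 10 J segments and 8 of 11 constant regions were higher. Ighd, the constant region of IgD on naive B cells (chromosome 12, 113406604 to 113416324), was 0.128, 0.249, 0.128, 0.330 and 1.27 TPM in the Trac-low and 112, 215, 51.9, 52.2 and 120 TPM in the Trac-high libraries, a gap of 4.03. The ratio of Ighd to Ighm was 0.546 to 0.661 in Trac-high and 0.0490 to 0.174 in Trac-low libraries. Igkc, the kappa light chain constant region, overlapped at 198 to 446 TPM against 377 to 1136 TPM. Jchain, which joins secreted IgA and IgM, overlapped at 24.4 to 54.0 TPM against 12.7 to 76.6 TPM, and Igha, the IgA constant region, at 165 to 382 TPM against 12.3 to 448 TPM. Of 17 genes for plasma cells and immunoglobulin constant regions, 7 were higher, among them the 4 Ighg constant regions, and 3 were lower in every Trac-high library. The lower ones were Xbp1, Sdc1 and Pigr, which secretory or mammary epithelium also expresses, and as deposited they overlapped.

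Antigen presentation and dendritic cell genes were also higher with Trac, and macrophage and granulocyte genes were mostly not separated. All 10 MHC class II genes were higher in every Trac-high library, with a median difference of 1.90, smaller than for T or B cell genes. Cd74, the invariant chain, was 102 to 267 TPM in the Trac-low and 463 to 1422 TPM in the Trac-high class. Ccl22, a chemokine of mature dendritic cells, was 0.123 to 0.679 TPM against 21.4 to 126 TPM, and Fscn1, an actin bundler of mature dendritic cells, 4.30 to 13.9 TPM against 96.3 to 548 TPM. Of 13 dendritic cell genes, 9 were higher. Of 16 macrophage genes, of which 15 passed the filter, 3 were higher and 1 was lower, both below the shares of all filtered genes. C1qa, a complement subunit made by tissue macrophages, overlapped with and without scaling, at 20.9 to 37.4 TPM against 36.3 to 63.6 TPM. Lyz2, the lysozyme of myeloid cells, was 12.4 to 20.8 TPM against 171 to 527 TPM. Of 14 neutrophil genes, none was higher after scaling, 4 were as deposited, and 6 passed the filter. Of 17 genes for cytotoxic and NK cells, 12 passed the filter and 10 were higher, such as Nkg7, a granule membrane protein, at 0.231 to 2.09 TPM against 14.1 to 37.6 TPM. Gzma, a granzyme, overlapped at 1.08 to 2.75 TPM against 2.41 to 4.75 TPM.

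Cell cycle genes were higher in the Trac-high class. Of 22 genes, 19 were higher in every Trac-high library after scaling, with a median difference of 1.02, and 14 after quantile normalization. Top2a, a topoisomerase of dividing cells, was 2.73, 1.76, 2.67, 2.02 and 3.62 TPM in the Trac-low and 20.4, 37.6, 12.3, 14.6 and 23.6 TPM in the Trac-high libraries. Pcna, the sliding clamp of DNA replication, was 8.49 to 14.5 TPM against 23.2 to 45.4 TPM, and after scaling the gap between its classes was 0.0053. Of 20 interferon response genes, 2 were higher after scaling.

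How milk, epithelial, adipocyte and stromal genes compared depended on the scaling. TPM sum to a fixed total, and the scaling factors were 1.23 to 1.97 in Trac-high and 0.561 to 0.958 in Trac-low libraries, without overlap. As deposited, 8979 of the 14733 genes (60.9%) were higher in every Trac-high library and 7 (0.0475%) were lower, and the median difference of all tested genes was 0.93 in place of 0.07. Since every Trac-high factor exceeded every Trac-low factor, each of the 3101 genes that were higher after scaling had to be higher as deposited. In reverse, a gene that was lower as deposited had to be lower after scaling. Another 155 genes were lower after scaling and higher as deposited. The B cell and MHC class II lists, and the T cell receptor list with Trac left out, were wholly higher under all 4 scalings. Of these 4, the result as deposited follows from the scaled one. The counts below, by contrast, hold for the scaled values and mostly vanish as deposited. After quantile normalization, 2466 genes were higher and 2400 lower.

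**Figure D2:**
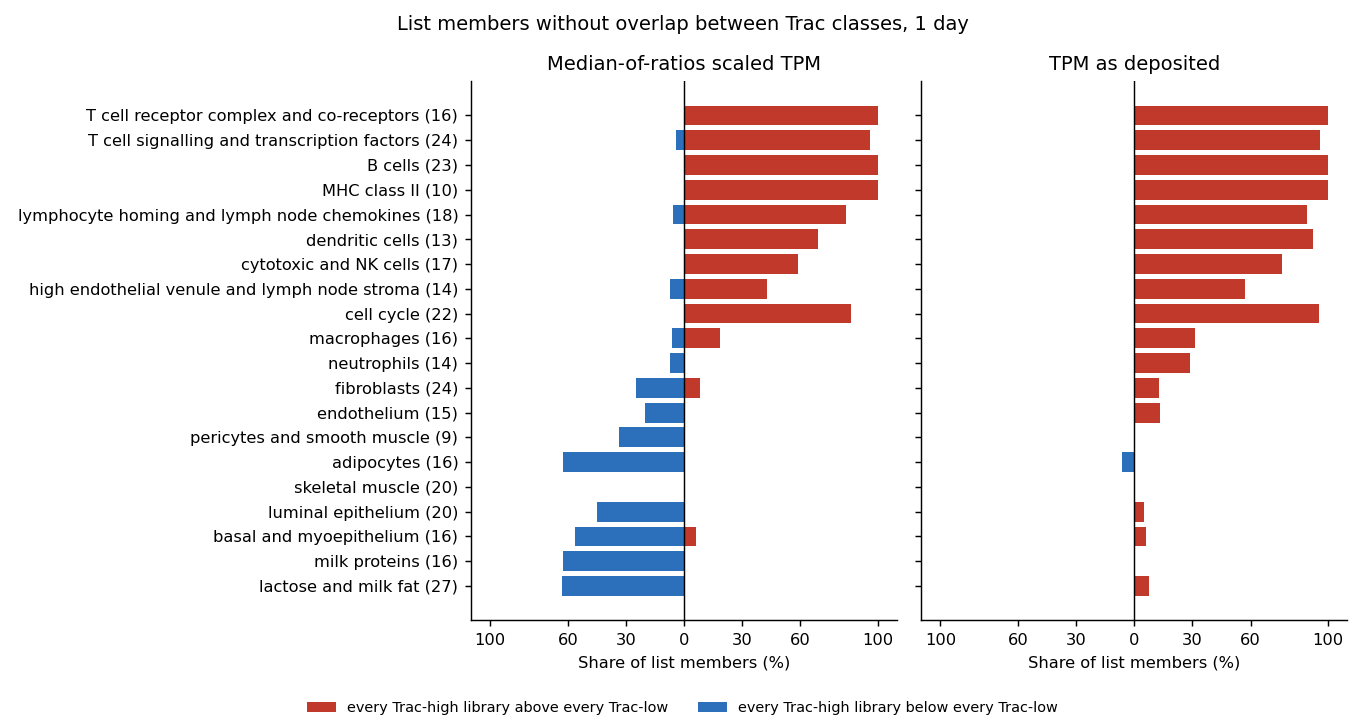
Share of the members of 20 gene lists, on the horizontal axis in percent, that were higher (red, to the right) or lower (blue, to the left) in every Trac-high than in every Trac-low library, after median-of-ratios scaling (left panel) and as deposited (right panel). Numbers in parentheses are list members above 0 TPM, and the 16 of the T cell receptor list include Trac, which drew the classes. T cell, B cell and MHC class II bars fill the right side in both panels, while the blue bars of milk, epithelium and adipocytes of the left panel are nearly all missing on the right.

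Milk transcripts were lower in the Trac-high class relative to the median gene, with wide overlap in TPM. Of 16 milk protein genes, 10 were lower in every Trac-high library after scaling, 6 after rescaling without the pseudogenes Gm12895 and Gm12896 described below, 1 after quantile normalization and none as deposited. Their median difference was -2.18 after scaling and -0.92 as deposited, where the median gene was at 0.93. Csn2, the beta casein (chromosome 5, 87692624 to 87699630), was 43453, 54286, 71379, 49817 and 44568 TPM in the Trac-low and 14399, 21.3, 51650, 33341 and 17914 TPM in the Trac-high libraries. Cabergoline replicate 2, with 69.2 TPM of Trac, held as much Csn2 as Trac-low libraries did, and untreated replicate 3 held almost none. Wap, the whey acidic protein, was 115350 to 131840 TPM against 49.1 to 151260 TPM. The milk protein list made up 27.0% to 36.4% of TPM in Trac-low libraries and 7.55%, 0.242%, 34.4%, 28.6% and 14.2% in the Trac-high libraries. Of 27 genes for lactose and milk fat, 17 were lower after scaling and none as deposited. One of them, Acaca, the first enzyme of fatty acid synthesis, was among the 10 widest gaps downward, at 60.5 to 219 TPM against 21.9 to 66.8 TPM.

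Of 20 luminal genes, 9 were lower after scaling and none as deposited, and of 16 basal and myoepithelial genes, 9 were lower after scaling and none as deposited. Krt18, a luminal keratin (chromosome 15, 102028180 to 102032027), was 228, 122, 84.1, 126 and 90.1 TPM in the Trac-low and 27.6, 1.06, 152, 142 and 78.3 TPM in the Trac-high libraries. The classes overlapped, with cabergoline replicates 2 and 4 within the Trac-low range. Epcam, a surface protein of epithelium, was 92.9 to 141 TPM against 1.94 to 143 TPM. Krt14, the basal keratin whose promoter drives Cre, was 10.7 to 77.4 TPM against 0.166 to 16.3 TPM. The 77.4 TPM came from cabergoline replicate 3, which also held the skin proteins Flg at 117 TPM and Krt10 at 49.5 TPM, against at most 0.697 and 1.27 TPM in the other libraries. Lamb3, a laminin chain, was the basal gene that was higher in every Trac-high library, at 19.1 to 41.8 TPM against 79.0 to 192 TPM.

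Adipocyte genes were lower after scaling in 10 of 16 cases, with a median difference of -1.73, and in 1 case, Cfd, as deposited. Adipoq, the adipocyte hormone adiponectin, was 6.06, 1.26, 7.87, 5.23 and 3.77 TPM in the Trac-low and 0.854, 2.02, 2.08, 1.23 and 0.133 TPM in the Trac-high libraries. The TPM classes overlapped only through untreated replicate 4. Fabp4, a fatty acid carrier of adipocytes and capillary endothelium, was 118 to 224 TPM against 87.9 to 148 TPM. Skeletal muscle genes varied widely within both classes, and none of 20 was separated. Ckm, the muscle creatine kinase, was 0.492, 0.325, 150, 105 and 30.3 TPM against 103, 942, 16.8, 1.86 and 1.44 TPM.

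Few stromal genes were higher in the Trac-high class. Of 24 fibroblast genes, 6 were lower and 2, Dpp4 and Thy1, were higher after scaling. The median difference of the list was -0.64 after scaling and 0.23 as deposited, so that its direction turned with the scaling. Both of the latter are also expressed by T cells. Without untreated replicate 3, which can only raise such a count, 9 fibroblast genes were lower. Col1a1, a chain of type I collagen, was 38.2, 31.6, 29.0, 48.1 and 59.0 TPM in the Trac-low and 33.0, 65.1, 36.9, 61.3 and 40.6 TPM in the Trac-high libraries. As deposited the classes overlapped. Pdgfra, a fibroblast receptor, overlapped under both scalings, at 3.88 to 10.4 TPM against 6.51 to 20.2 TPM. Of 15 endothelial genes, none was higher and 3 were lower after scaling, and 2 were higher as deposited, with a median difference of -0.37 and 0.62. Pecam1, an adhesion molecule of endothelium and leukocytes, was 11.6 to 30.1 TPM against 37.5 to 106 TPM and overlapped after scaling. Cdh5, the cadherin of endothelium, was 13.5 to 28.0 TPM against 18.3 to 33.3 TPM. Of 9 pericyte and smooth muscle genes, 3 were lower after scaling, and 8 without untreated replicate 3. Of 7 lymphatic endothelial genes, Ccl21a was higher and none was lower, and of 8 Schwann cell genes 1, Sox10, was lower.

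**Figure D3:**
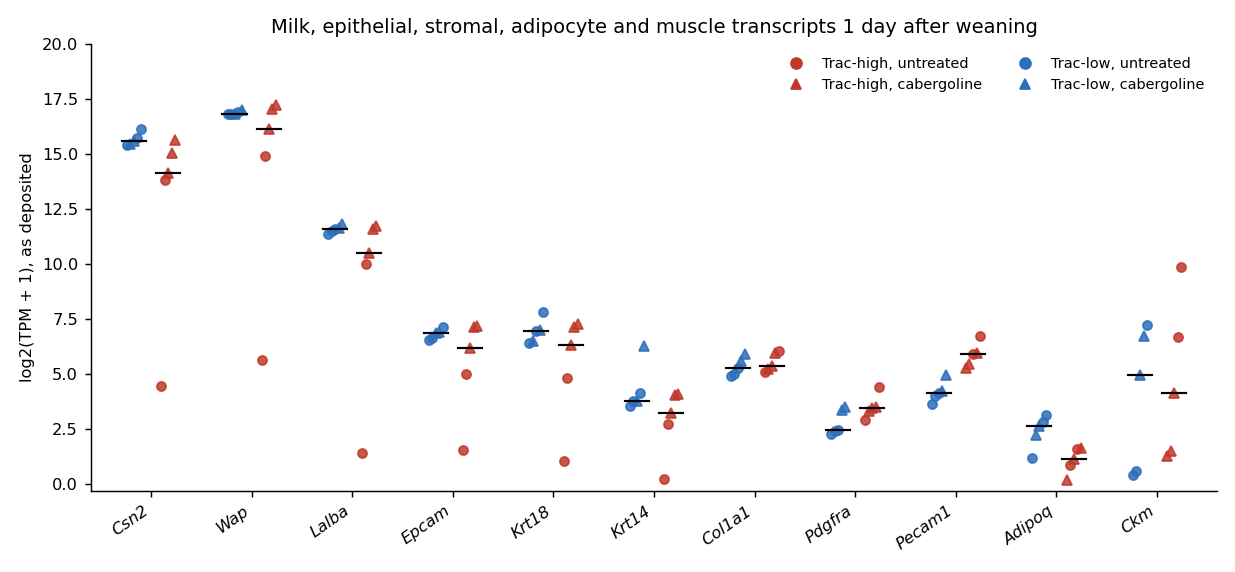
TPM of milk (Csn2, Wap, Lalba), epithelial (Epcam, Krt18, Krt14), stromal (Col1a1, Pdgfra), endothelial (Pecam1), adipocyte (Adipoq) and muscle (Ckm) transcripts as log2(TPM + 1) on the vertical axis, as deposited, with colours, symbols and bars for Trac-low (blue) and Trac-high (red) libraries, untreated (circles) and cabergoline-treated mice (triangles), and class medians. One red circle, untreated replicate 3, lies far below all others for Csn2, Wap and Lalba and is the highest point for Ckm at 942 TPM.

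Outside the lists, the widest gap downward was that of Gm12731, a processed pseudogene (chromosome 4, 106257031 to 106257298), at 8.44, 10.6, 19.8, 14.7 and 12.3 TPM in the Trac-low and 2.66, 0, 3.11, 7.02 and 1.40 TPM in the Trac-high libraries. Its gap of 1.21 was much narrower than the widest gaps upward. The immediate early gene Fos followed with 1.08, at 39.2 to 123 TPM against 22.3 to 47.4 TPM. Of 15 immediate early genes, 5 were lower after scaling and none as deposited. Of 25 genes for STAT3 signalling and early involution, 5 were lower after scaling, Fos among them, and none as deposited. Duoxa1, the maturation factor of a peroxide-generating oxidase, and Pip, a secreted protein of exocrine glands, were lower under both scalings. Pip was 94.3 to 227 TPM against 0.144 to 85.1 TPM, and Duoxa1 7.61 to 15.6 TPM against 0.632 to 7.53 TPM. The 7 genes that were lower in every Trac-high library both scaled and as deposited were Gm12731, Duoxa1, Pip, Adig, Cfd, Duox1 and Steap1. Being lower as deposited implied being lower after scaling, given the factors above.

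The Trac-high libraries were more complex. Between 15238 and 16570 genes reached 1 TPM in Trac-high libraries and between 11764 and 14179 in Trac-low libraries. The 10 highest genes held 47.9% to 66.1% of TPM against 72.0% to 82.5%, and the 100 highest 57.9% to 73.2% against 79.9% to 87.9%. To reach 90% of TPM took 3074 to 4878 genes in the Trac-high and 282 to 1826 genes in the Trac-low class. The number of genes above 0 TPM overlapped, at 21932 to 22195 against 20823 to 22456. Of the Trac-low libraries, cabergoline replicate 3 was closest to the Trac-high class in genes at 1 TPM, in both top shares and in Trac. Without untreated replicate 3 the Trac-high ranges were 15238 to 15610 genes at 1 TPM and 67.9% to 73.2% for the 100 highest genes. The share of mitochondrial transcripts overlapped, at 1.36% to 6.39% against 1.10% to 2.60%. What complexity contributed to the differences between the classes was not tested.

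**Figure D4:**
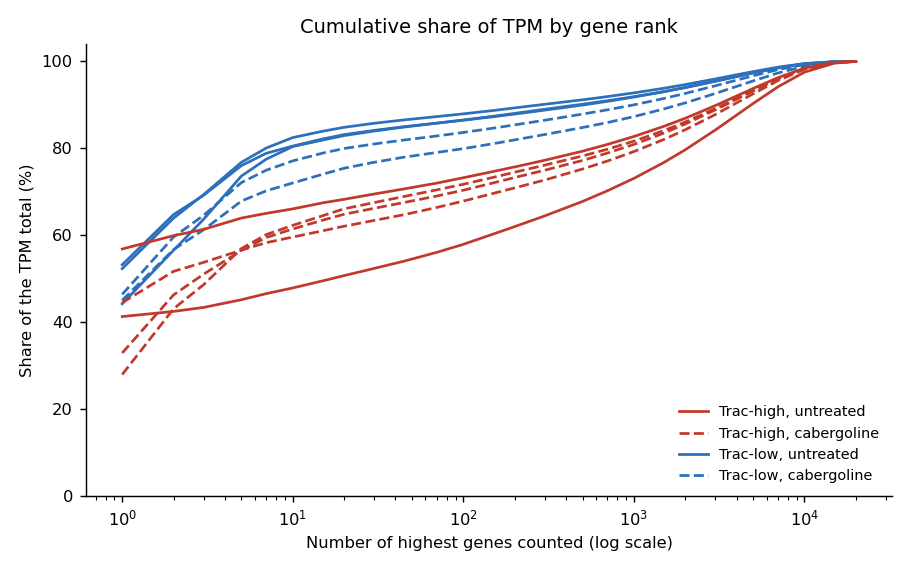
Cumulative share of TPM in percent (vertical axis) over genes ranked from highest to lowest (horizontal axis, log scale) for each of the 10 libraries, Trac-high in red and Trac-low in blue, with solid lines for untreated and dashed lines for cabergoline-treated mice. From rank 10 to rank 1000 all blue lines run above all red ones, with 79.9% to 87.9% against 57.9% to 73.2% of TPM at rank 100.

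Gm12895, annotated as a processed pseudogene, was the gene with the highest listed TPM in both classes. It is printed because it held 28.0% to 56.8% of TPM in Trac-high and 44.2% to 53.2% in Trac-low libraries, and so bears on the TPM of every other gene. It is on the plus strand of chromosome 4, from 122455210 to 122455435 on GRCm38, and 71.2% of its 226 bases are G or C.
Gm12895: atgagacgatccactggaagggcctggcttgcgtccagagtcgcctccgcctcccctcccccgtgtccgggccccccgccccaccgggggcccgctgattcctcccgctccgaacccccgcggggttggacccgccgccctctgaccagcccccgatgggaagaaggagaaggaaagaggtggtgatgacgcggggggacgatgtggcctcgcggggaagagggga
It shares a run of 224 bases with Gm12896, so that reads of the pair cannot be told apart. Whether the reads assigned to them came from these loci or from another abundant RNA was not tested. The share of both together overlapped between the classes, at 28.5% to 58.3% against 44.3% to 53.8%. With both left out and TPM rescaled to the same total, 7385 genes were higher and 78 lower in every Trac-high library, so that their removal did not bring the counts to those of the median-of-ratios scaling.

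Both treatments were present in both classes. The Trac-high class held 3 cabergoline and 2 untreated libraries, and the Trac-low class 2 and 3. Trac averaged 4.24 ± 2.66 (SD, n = 5) on log2(scaled TPM + 1) in cabergoline-treated and 3.01 ± 3.53 (SD, n = 5) in untreated mice. The difference of 1.23 was smaller than the spread within either group, with p = 0.508 in an exact two-sided permutation test whose smallest possible p is 0.00794. Across all genes, limma called 0 of 14733 (0%) between treatments at an adjusted p of 0.05, with 287 at an unadjusted p of 0.05 or less. With log2 Trac as a further term the calls were again 0, with 2727 at an unadjusted p of 0.05 or less. Weights for library quality gave 1 call, with 4260 genes at an unadjusted p of 0.05 or less. The study tested this comparison with edgeR, which needs counts, so its own calls were not repeated here.

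The libraries of the other 3 groups allowed a test of what varies with Trac. Trac ranged from 0 to 397 TPM over these 15 libraries, with a median of 171 TPM, and 2 of them were below 10 TPM. limma was fitted on log2(scaled TPM + 1) with centred log2 Trac and the group as terms. Of 18777 genes, 2414 (12.9%) rose and 1945 (10.4%) fell with Trac at an adjusted p of 0.05. Untreated 60-day replicate 2, in which Trac was listed at 0, bore on these counts, and without it 1576 genes rose and 1774 fell. It also held 22202 TPM of Csn2, against at most 639.8 TPM in the other 14 libraries.

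T and B cell genes rose with Trac in these libraries. Of the T cell receptor complex, 14 of 15 genes rose, and of T cell signalling genes 22 of 24. Cd3e rose by 0.92 ± 0.05 (SE) on the log2 scale per unit of log2 Trac (limma, adjusted p = 6.72e-08, n = 15). Of 23 B cell genes, 20 rose, with Cd79a at 0.61 ± 0.13 (SE, limma, adjusted p = 0.00325). Of homing and chemokine genes, 13 of 18 rose and 1 fell, and Ccl21a had a slope of 0.85 ± 0.11 (SE, limma, adjusted p = 0.000136). Each of the 10 genes with the widest gaps upward at 1 day rose, with slopes of 0.78 for Traj47 to 1.28 for Traj16. All of them except Ccl19 are Traj segments, which are transcribed together with Trac. Their rise is therefore no separate check. Ccl19 had a slope of 0.96 ± 0.16 (SE, limma, adjusted p = 0.000721). Of 14 genes of lymph node vessels and stroma 5 rose, and of 13 dendritic cell genes 6, without a fall in either list. Of 16 macrophage genes 2 rose and 2 fell. Of 16 plasma cell and immunoglobulin constant region genes 3 rose and 3 fell, and Igkc had a slope of 0.27 (limma, adjusted p = 0.210). Of 10 MHC class II genes 5 rose, of 15 cytotoxic and NK genes 10, and of 22 cell cycle genes 7. Without untreated 60-day replicate 2 these counts were 14, 23, 19, 15, 4, 12 and 7 for the T cell receptor, T cell signalling, B cell, homing, MHC class II, cytotoxic and cell cycle lists. For lymph node vessels and stroma they were 4 up and 1 down, for dendritic cells 6 and 0, for macrophages 1 and 1, and for plasma cells and immunoglobulin constant regions 1 and 2. The genes with the smallest p for a rise were Grap2, Cd2, Cd3e, Gm17169 and Dock10, of which Grap2 is an adaptor and Cd2 an adhesion molecule of T cells. The ratio of Cd79a to Cd3e was 0.0240 to 0.411 in the 13 libraries with at least 10 TPM of Trac, with a median of 0.167, against 0.359 to 0.515 in the Trac-high libraries at 1 day.

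**Figure D5:**
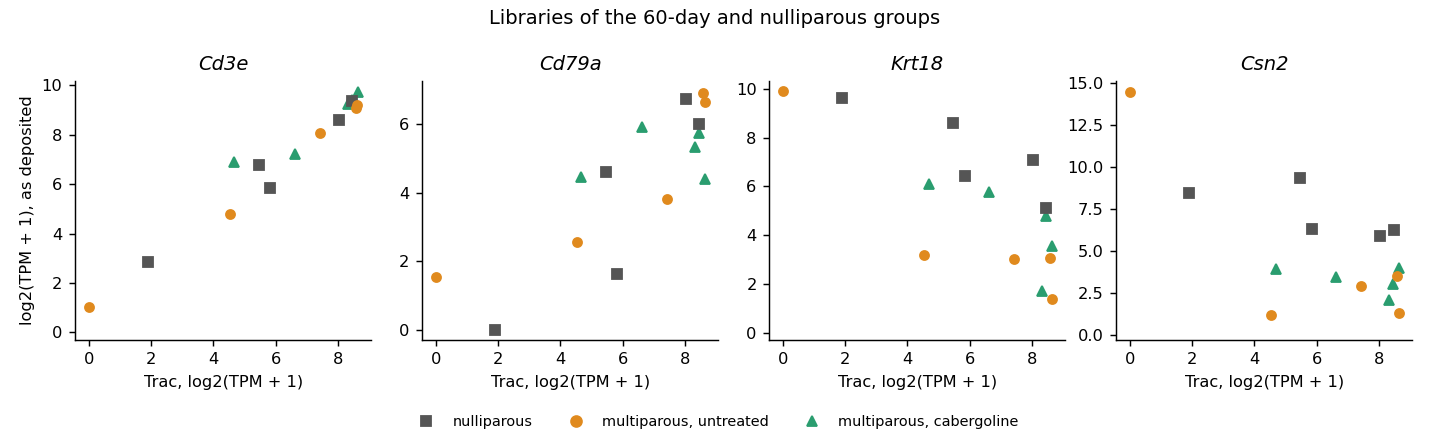
Each point is one of the 15 libraries of the nulliparous and 60-day groups, with log2(TPM + 1) of Trac on the horizontal and of Cd3e, Cd79a, Krt18 or Csn2 on the vertical axis, as deposited, and symbols for the 3 groups. Cd3e and Cd79a are higher where Trac is higher and Krt18 is lower, and 1 untreated library stands alone at 0 TPM of Trac with 22202 TPM of Csn2.

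Epithelial and milk genes fell with Trac in these libraries. Of 19 luminal genes, 17 fell, and of 16 basal and myoepithelial genes, 13. Krt18 had a slope of -0.80 ± 0.10 (SE, limma, adjusted p = 0.000102) and Epcam of -0.52 ± 0.09 (SE, limma, adjusted p = 0.000885). Of 15 milk protein genes, 11 fell and of 26 lactose and milk fat genes, 17. Without untreated 60-day replicate 2 the luminal and basal counts were 14 and 11, while the milk protein and lactose and milk fat counts were 4 and 8, and 1 milk protein gene rose. Csn2 had a slope of -0.94 ± 0.21 (SE, limma, adjusted p = 0.00560) with this library and of -0.26 (limma, adjusted p = 0.230) without it. Of 24 fibroblast genes none passed the test with all libraries, and 5 fell without that library. For endothelial genes the counts were 2 and 10 of 15. Adipocyte genes fell in 2 of 15 cases with all libraries, near the 10.4% of all genes, and in 1 case without that library. Adipoq had a slope of -0.12 (limma, adjusted p = 0.695). Of 15 immediate early genes 10 fell, Fos with a slope of -0.37 ± 0.07 (SE, limma, adjusted p = 0.00226).

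The calls in the other 3 groups and the separation at 1 day were set side by side over the 14630 genes measured in both. Of 3098 genes that were higher in every Trac-high library, 1432 (46.2%) rose with Trac in the other 3 groups, where 14.1% of all 14630 genes did, and 1 fell. These 1432 were 69.4% of the 2064 genes that rose. Of 1889 genes that were lower in every Trac-high library, 770 (40.8%) fell with Trac, where 11.2% of all genes did, and 6 rose. Without untreated 60-day replicate 2 the shared counts were 1120 (36.2%, against 9.56% of all genes) and 616 (32.6%, against 9.91%). As deposited, 8973 genes were higher at 1 day, of which 1927 (21.5%) rose with Trac in the other 3 groups and 140 fell, and of 4 genes that were lower, 2 fell and none rose.

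Neither measure of complexity passed the test against Trac in the other 3 groups. Over the 15 libraries and 5 measures, genes at 1 TPM had a Pearson r of 0.34 with log2 Trac (permutation p = 0.203, adjusted 0.338) and a Spearman rho of 0.09 (permutation p = 0.754, adjusted 0.754). The share of the 100 highest genes had r = -0.25 (permutation p = 0.361, adjusted 0.451) and rho = -0.36 (permutation p = 0.191, adjusted 0.239). Leaving out the 2 libraries farthest from the median Trac, r was 0.03 and -0.42. The share of Gm12895 had r = 0.51 (permutation p = 0.0424, adjusted 0.106) and rho = 0.64 (permutation p = 0.0110, adjusted 0.0549), with r = 0.50 without those 2 libraries. The mitochondrial share had r = -0.20 (permutation p = 0.476, adjusted 0.476) and rho = -0.51 (permutation p = 0.0518, adjusted 0.130), with r = -0.51 without them. The milk protein share had r = -0.71 (permutation p = 0.00278, adjusted 0.0139) and rho = -0.38 (permutation p = 0.161, adjusted 0.239). Within groups, with each group's mean removed, its r was -0.72 (permutation p = 0.00422, adjusted 0.0211). Without the 2 libraries farthest from the median Trac it was -0.28, so that the relation rested on those libraries.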

How the data were processed

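RNA from mammary organoids was depleted of ribosomal RNA and sequenced. Per the labels and methods, the authors ran Salmon against GRCm38, and the deposited table gives TPM per gene for 25 libraries. It holds no counts, so depth per library, and any interval that needs it, is unknown. The annotation release is not given in the sources used here, and GENCODE gene models were used for names, with 34582 of 34866 gene IDs matched to a symbol. Median-of-ratios factors were taken from genes that reached 1 TPM in all libraries compared. limma 3.58.1 (eBayes with trend, R 4.3.3) was fitted to log2(scaled TPM + 1), which compresses changes of low genes. A gene was kept if 5 or more libraries reached 1 TPM. P-values were adjusted by Benjamini-Hochberg over all genes, at a threshold of 0.05. Correlations used 100000 permutations in scipy 1.17.1. The counts of genes without overlap and the limma fits were first tested on simulated data. Alternatives were TPM as deposited, quantile normalization, another pseudocount, other filters, another Trac threshold, each treatment alone, library weights, a replicate block, no group term, and leaving out each library. Rescaling without Gm12895 and Gm12896, leaving out single libraries from the correlations, and the ribosomal protein and histone lists were added after seeing the data.

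The classes, gene lists and tests were chosen with earlier results of these data known. The text names 38 genes fixed by name, the 4 members of each list with the highest median TPM, the 10 widest gaps in each direction, the 5 smallest p-values in each direction among the nulliparous and 60-day libraries, and exceptions to a list. Foxp3, Chst4, Duox1, Steap1 and Cfd fall outside this rule and were named after their values were seen. Groups and replicate numbers came from the labels. The study counts libraries as mice, and p-values measure the spread between them. List symbols that the table does not hold were not analysed here, and values of a few list members are not reported here.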

Additional observations from a re-analysis of the deposited data

Results flagged for a closer look

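Untreated replicate 3 of the Trac-high class stood far from the other 4 untreated libraries at 1 day in 4 measures. Csn2 was 21.3 TPM there, against 14399 to 71379 TPM in the others, and Wap was 49.1 TPM, against 30645 to 123080 TPM. Lalba, the regulatory subunit of lactose synthase, was 1.67 TPM against 1020 to 3099 TPM. The mitochondrial share of this library was 6.39%, against 1.10% to 2.32%. The gap to the nearest library was 0.750 to 0.770 of the whole range of the group. It was taken on log2(scaled TPM + 1) for the genes and in percent for the mitochondrial share. These ratios are above Dixon's critical value for 5 samples, which chance exceeds in about 1 of 20 groups for a single measure. Csn2, Wap and Lalba are all milk genes measured in the same library, so they are no separate checks. The same library had the highest Trac (230 TPM), Cd79a (106 TPM) and Ckm (942 TPM) of the 10.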

How the results depend on the processing

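The number of genes without overlap at 1 day, 3101 higher and 1909 lower in the Trac-high class, was 8979 and 7 as deposited, 7385 and 78 after rescaling without Gm12895 and Gm12896, and 1833 and 1099 with the threshold at 1 TPM of Trac, which moves cabergoline replicate 3 to the upper class. With fewer libraries overlap is rarer by construction: the counts were 6073 and 4415 in untreated libraries alone, 4581 and 3782 in cabergoline-treated libraries alone, and 3146 to 3640 and 1956 to 2425 leaving out each library in turn. Other filters and quantile normalization left both counts within 1.5 times. For treatment at 1 day, weights for library quality gave 1 call in place of 0. The difference of Trac between treatments ran from 0.55 to 2.20 leaving out each library. In the nulliparous and 60-day libraries the calls ran from 1576 to 3139 higher and from 1374 to 2493 lower leaving out each library, with the lowest higher count without untreated 60-day replicate 2. A replicate block gave 1549 higher in place of 2414, though same-numbered libraries did not all deviate together (correlations of -0.51 to 0.63 among the nulliparous and 60-day libraries and -0.78 to 0.56 at 1 day, with 0.35, 0.63 and 0.56 for replicates 1, 3 and 5 between the 60-day groups), and 0 calls for treatment. The milk protein share lost its correlation with Trac without the 2 libraries farthest from the median Trac, at -0.28. Of slopes on Trac there for 23 named genes under 21 alternatives, 478 kept their call and 5 lost it: Csn2 (-0.26), Wap (-0.27) and Krt14 (-0.40) without untreated 60-day replicate 2, and Cxcr5 without nulliparous replicate 4 (0.32) or with the block (0.39). No direction reversed. The cause was not tested. TPM without counts gives no depth, so values near 0 have no stated precision.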

Other observations

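Replication-dependent histone genes, a list chosen after their values were seen, were higher in every Trac-high library at 1 day in 44 of 66 cases after scaling and in 57 as deposited, with a median difference of 1.41 after scaling. Their messages lack a poly(A) tail and are read when total RNA is depleted of ribosomal RNA. Hist1h4k, a histone H4 gene, was 28.9 to 60.0 TPM in the Trac-low and 188 to 454 TPM in the Trac-high class. Near-identical copies of histone genes share reads, so the values of single genes are uncertain. In the nulliparous and 60-day libraries, 16 of 62 histone genes rose with Trac and none fell (limma, adjusted p of 0.05), and without untreated 60-day replicate 2, 10 rose and none fell.

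Cytosolic ribosomal protein genes, chosen in the same way, depended on the scaling. Of 88 genes, 85 passed the filter. After median-of-ratios scaling 20 were higher and 3 lower in every Trac-high library, where 21.0% and 13.0% of all filtered genes were. The higher count was thus near the share of all genes. After quantile normalization 49 were higher and 1 lower. As deposited 76 were higher, where 60.9% of all filtered genes were. Rpl13a was 291 to 500 TPM in the Trac-low and 951 to 1717 TPM in the Trac-high class. In the nulliparous and 60-day libraries 9 of 85 rose and 1 fell with Trac, where 12.9% and 10.4% of all genes did. Without untreated 60-day replicate 2 the counts were 6 and 2.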
